A study of Homo sapiens with 8 samples.

Results

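The ATF4 amino acid stress genes are 36 protein-coding genes: the transcription factor ATF4, the factors and feedback regulators that work with it, and genes of amino acid synthesis, uptake and tRNA charging known as its targets. They were chosen by gene name among the 60708 genes of the deposited count table. Each name matched 1 row, and all 36 were among the 16008 genes that passed the filter on low counts.

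ATF4 is a bZIP transcription factor whose mRNA is translated more when the initiation factor eIF2 is phosphorylated, by the kinase GCN2 when amino acids run short or by PERK when unfolded proteins fill the endoplasmic reticulum. It then acts with C/EBP partners on genes that make, import and load amino acids. TRIB3 and PPP1R15A close feedback loops on this response, TRIB3 by binding ATF4 and PPP1R15A, also called GADD34, by directing a phosphatase to eIF2. Much of the control of ATF4 is thus on its protein, which mRNA libraries do not measure.

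The study used HS578T, an established line from a triple-negative breast carcinoma with a mesenchymal form. The cells were transfected with 25 µg of plasmid for heat shock factor 2 (HSF2oe) or for GFP (Mock). A day later they had 24 h in low-serum medium with 10 ng/ml TGF-β1 or without it (control), and polyA RNA was sequenced. The 4 groups were HSF2oe with TGF-β, HSF2oe control, Mock with TGF-β and Mock control, with 2 biological replicates each. All 4 thus carried a transfected plasmid, and the share of cells that took it up is not given in the sources used here. A treatment field in the labels names DMSO for every Mock library and TGFb1 for every HSF2oe library, against the titles. The groups here follow the titles.

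Libraries held 17427645 to 34336107 counts in genes. Levels are given as CPM, counts brought to a common library size with TMM factors that lay between 1.03 and 1.11 in control libraries and between 0.857 and 1.01 in TGF-β libraries. HSF2 had 780.3 and 489 CPM in HSF2oe libraries with TGF-β, 937 and 616 CPM in HSF2oe control libraries, 5.4 and 5.76 CPM in Mock libraries with TGF-β, and 8.36 and 6.44 CPM in Mock control libraries. The TGF-β targets FN1 and SPARC were higher with TGF-β in HSF2oe cells (log2 fold changes 0.57 and 0.79) and in Mock cells (0.87 and 0.93), as the titles name the libraries. Of 10 epithelial markers, EPCAM, PGR, KRT19 and ESR1 were at or near 0 in every library, and CDH1 was at most 1.17 CPM. CLDN4 was at most 2.14 CPM, GATA3 had 7.58 to 15.2 CPM, MUC1 6.26 to 17.1 CPM and KRT8 15.6 to 26.1 CPM. KRT18 had 177 to 275 CPM. The mesenchymal marker VIM had at least 3181 CPM, and FN1, the highest of the 10 mesenchymal markers, had 25204 to 54264 CPM. The 8 blood and endothelial markers, with CD3E and HBB at 0, summed to 3.88 and 3.92 CPM in HSF2oe libraries with TGF-β and to 5.93 to 8.06 CPM in the others. The 10 epithelial markers, mostly KRT18, summed to 216 to 261 CPM in HSF2oe libraries and to 290 to 320 CPM in Mock libraries, and the 10 mesenchymal markers summed to 54690.5 to 57773 CPM in HSF2oe libraries with TGF-β, 41075 to 41408 CPM in HSF2oe control libraries, 71301 to 79488 CPM in Mock libraries with TGF-β and 42951 to 49154 CPM in Mock control libraries. Both sums were thus lower in HSF2oe than Mock libraries of the same medium. Single markers did not all follow: in control medium GATA3 was called higher in HSF2oe cells (log2 0.84), while 5 of 6 tested epithelial markers were below 0. Of the 10 mesenchymal markers, 1 was called higher and 3 lower in HSF2oe cells with TGF-β, and 1 higher and 2 lower in control medium. The part of these shifts in the results was not tested. In bulk RNA of this kind, fewer cells with a transcript and less of it per cell cannot be told apart.

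Promoter sequence of 30 of the 36 genes was found in RefSeq (build GRCh38), as windows of 250 bases before to 50 bases after each start site. NUPR1, PYCR1, PSPH, SHMT2, ALDH1L2 and SLC7A11 were not matched. The C/EBP-ATF response element, the composite site on which ATF4 and a C/EBP partner bind, was searched as TGATGNAA on both strands, which reads TTNCATCA on the other strand. At least 1 window held it in 11 of the 30 genes (36.7%), against 1217 of the 27305 genes with a window (4.46%). The genes were chosen largely as known ATF4 targets, so a higher share follows from the choice. The 30 genes also had more windows per gene, 47 in all, against 35116 for the 27305. The stretches around it are shown for the asparagine synthetase, glutathione-degrading and tRNA synthetase genes that carry it and were lower in HSF2oe cells in at least 1 medium, and for CEBPG, which was not called. Each is written 5′ to 3′ on the strand of its gene with the element in capitals.
ASNS, chr7:97872445-97872516, minus strand: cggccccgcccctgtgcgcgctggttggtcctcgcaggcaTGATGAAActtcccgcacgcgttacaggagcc
CHAC1, chr15:40953222-40953293, plus strand: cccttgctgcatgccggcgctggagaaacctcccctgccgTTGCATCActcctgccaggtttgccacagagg
AARS1, chr16:70289662-70289733, minus strand: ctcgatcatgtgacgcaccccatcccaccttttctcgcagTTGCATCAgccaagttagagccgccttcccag
GARS1, chr7:30594805-30594876, plus strand: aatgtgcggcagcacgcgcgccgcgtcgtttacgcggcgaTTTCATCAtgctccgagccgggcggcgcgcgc
IARS1, chr9:92293698-92293750, minus strand: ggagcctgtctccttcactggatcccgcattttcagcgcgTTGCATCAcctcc
MARS1, chr12:57488024-57488071, plus strand: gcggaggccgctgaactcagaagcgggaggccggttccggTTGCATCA
CEBPG, chr19:33374031-33374102, plus strand: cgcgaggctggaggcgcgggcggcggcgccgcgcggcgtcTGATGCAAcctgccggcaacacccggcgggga

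The element began 68 bases before the start site in ASNS and 209 bases before it in CHAC1, and it reached into the start site in MARS1. MTHFD1L, NARS1, SLC3A2 and SLC7A1 also held it. It was present in 6 of 18 matched genes lower in HSF2oe than Mock cells with TGF-β (33.3%) and in 5 of the 12 that were not (41.7%). For control medium it was present in 3 of 14 lower (21.4%) and in 8 of the 16 that were not (50%). A full cAMP response element, TGACGTCA, which is its own reverse complement, was in 1 of the 30 genes, PPP1R15A, against 2.25% of all genes. The endoplasmic reticulum stress element (ERSE) was in none of the 30, against 0.0916% of all genes. No composite element overlapped a cAMP response element. A match of letters does not show that a factor binds there.

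Per kilobase of exon, the members spanned a wide range. Over the 8 libraries SLC7A5, the large neutral amino acid transporter LAT1, averaged 553 RPKM (CPM per kilobase of exon), STC2, a secreted glycoprotein, 278 RPKM, and SLC3A2, the chain that carries LAT1 to the surface, 158 RPKM. ATF4 followed at rank 4 with 146 RPKM and PPP1R15A at rank 5 with 110 RPKM. VLDLR, a lipoprotein receptor, and ASNS, asparagine synthetase, were lowest with 1.99 and 0.845 RPKM. Of the exonic bases of ASNS, 49.3% are shared with a readthrough transcript annotated on its strand, and read pairs that fit both genes are not counted for either under the counting options in the file header, so reads in those bases do not add to its level. Shared bases also made up 39.6% of DDIT3, 29.7% of PYCR1 and 22.1% of ATF5, and 27 of the 36 members shared under 10%. Summed over the 36 members, the level was 1997 and 1992 RPKM in HSF2oe libraries with TGF-β, 1799 and 1846 RPKM in HSF2oe control libraries, 2680.3 and 2616 RPKM in Mock libraries with TGF-β, and 2212 and 2148 RPKM in Mock control libraries.

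**Figure D1:**
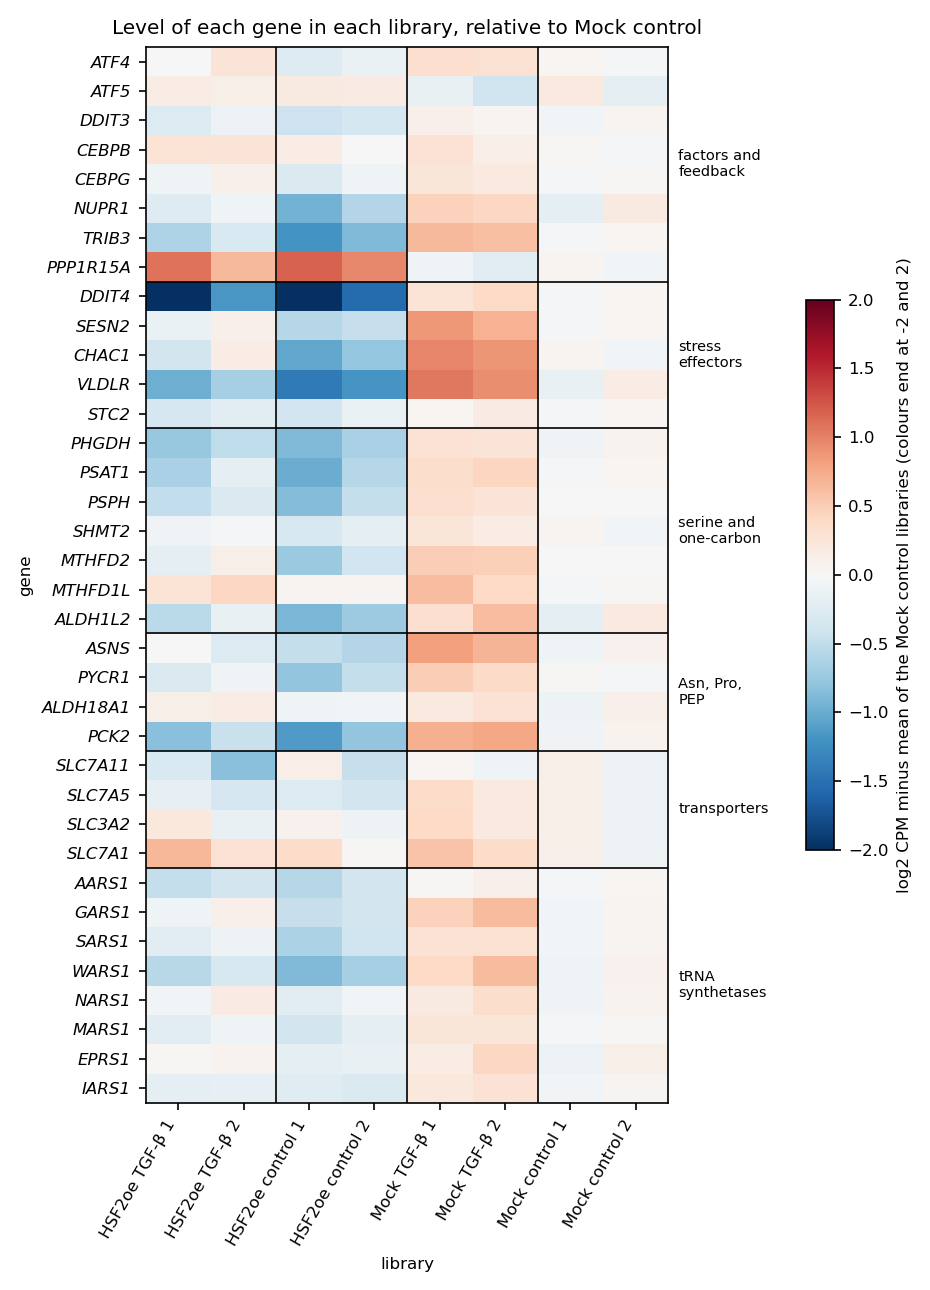
Level of each of the 36 genes (rows, by role) in each of the 8 libraries (columns), as log2 CPM minus the mean of the 2 Mock control libraries. Blue is lower and red is higher, with colours ending at 2 either way; DDIT4 is the darkest blue row across the HSF2oe libraries and PPP1R15A the red one.

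Some genes in each of 5 of the 6 roles in the program were called lower in HSF2oe than Mock cells in both media, while ATF4 mRNA itself was not called. No transporter was called lower in both. The factors and feedback regulators were split, with 2 of 8 lower and 2 higher with TGF-β, and 3 lower and 1 higher in control medium. With TGF-β in both groups, 22 members were lower and 2 higher in HSF2oe than Mock cells, where 21.5% of all genes tested were called, 11.9% lower and 9.6% higher. In control medium, 18 were lower and 1 higher, where 12.1% of all genes were called, 7.22% lower and 4.88% higher. A call is a Benjamini-Hochberg adjusted p under 0.05 in edgeR's quasi-likelihood test over all 16008 genes. The median log2 fold change of the members was -0.50 with TGF-β and -0.39 in control medium, and over all genes it was 0 in both. With library totals in place of TMM factors, the members' medians were -0.31 and -0.3, and those of all genes 0.19 and 0.09. Under that scaling 17 members were called lower with TGF-β and 16 in control medium. The libraries stood apart in the same way: in 16 members all 4 HSF2oe libraries lay below all 4 Mock libraries (44.4%, against 10.8% of all genes), and in 1, PPP1R15A, they lay above (2.78%, against 10.8%).

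The genes lower in both media numbered 17: NUPR1, TRIB3, DDIT4, SESN2, CHAC1, VLDLR, PHGDH, PSAT1, PSPH, MTHFD2, ALDH1L2, PYCR1, PCK2, AARS1, GARS1, SARS1 and WARS1. STC2, ASNS, SLC7A5, MARS1 and IARS1 were called lower with TGF-β and not in control medium, and DDIT3 in control medium and not with TGF-β. The difference between media, tested as an interaction, passed for none of them. The control medium count rested on particular libraries: it was 8 without HSF2oe control replicate 1 and 10 without Mock control replicate 2. The count with TGF-β was 16 without HSF2oe replicate 1 with TGF-β and 17 without Mock replicate 2 with TGF-β. In every alternative run, VLDLR, TRIB3, DDIT4, PCK2, PHGDH, WARS1, CHAC1 and PPP1R15A kept their calls in both media. The other 11 calls in control medium were all lost without HSF2oe control replicate 1, and 11 of the 24 with TGF-β were lost under at least 1 alternative.

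**Figure D2:**
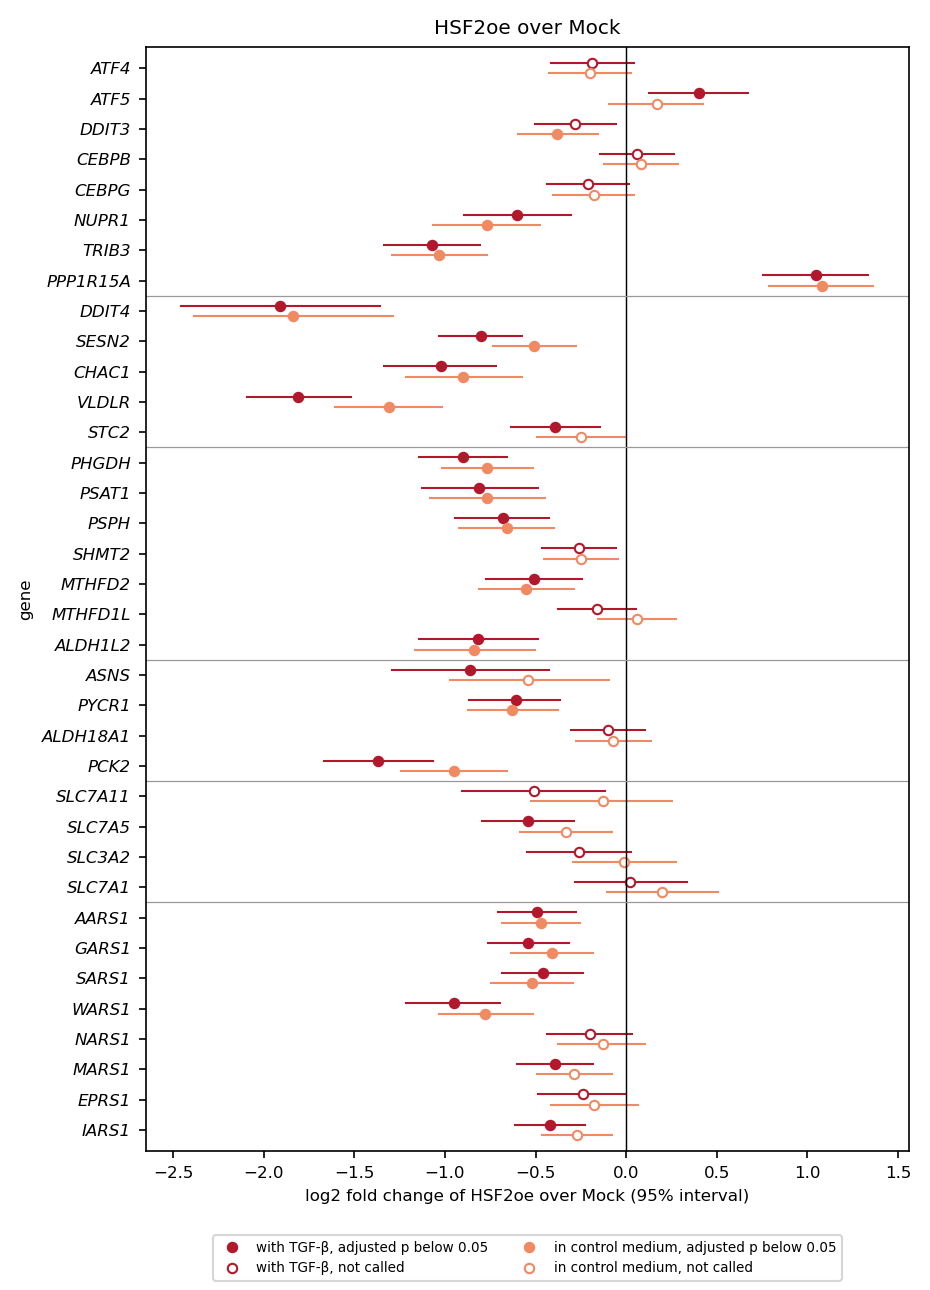
Log2 fold change of HSF2oe over Mock for each member, with its 95% interval, in TGF-β (dark red, upper mark) and control medium (orange, lower mark), 2 libraries a group. Filled marks have an adjusted p under 0.05; nearly all filled marks lie left of 0, and PPP1R15A stands near 1.

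Among the factors and feedback regulators, ATF4, CEBPB and CEBPG were called in neither medium, and the feedback genes TRIB3 and PPP1R15A changed in opposite directions. ATF4 (chr22:39519695-39522683) had 362 and 433 CPM in HSF2oe libraries with TGF-β, against 457 and 447 CPM in Mock libraries with TGF-β. It had 302 and 332 CPM in HSF2oe control libraries, against 371 and 354 CPM in Mock control libraries. The HSF2oe libraries were below the Mock libraries of the same medium in both cases, by a log2 fold change of -0.19 ± 0.11 (SE, adjusted p = 0.245) with TGF-β and -0.20 ± 0.11 (adjusted p = 0.261) in control medium, and neither passed the test. The 95% intervals ran from -0.42 to 0.05 and from -0.43 to 0.03.

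TRIB3 (chr20:362835-397559), the pseudokinase that restrains ATF4, had 62 and 76.9 CPM in HSF2oe libraries with TGF-β, against 148 and 144 CPM in Mock libraries with TGF-β. In control medium it had 41.3 and 51.4 CPM in HSF2oe libraries, against 91.8 and 97.5 CPM in Mock libraries. No HSF2oe library reached the lowest Mock library. The log2 fold changes were -1.07 ± 0.13 (SE, adjusted p = 0.000154) with TGF-β and -1.03 ± 0.13 (adjusted p = 0.000525) in control medium.

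PPP1R15A (chr19:48872421-48876058) went the other way. It had 489 and 362 CPM in HSF2oe libraries with TGF-β, against 216 and 196 CPM in Mock libraries with TGF-β. Without TGF-β it had 523 and 449 CPM in HSF2oe libraries, against 240 and 220 CPM in Mock libraries. All HSF2oe libraries were above all Mock libraries, and the level was 2.07-fold (log2 1.05 ± 0.14 SE, adjusted p = 0.000288) and 2.11-fold (log2 1.08 ± 0.14, adjusted p = 0.000653) that of Mock cells.

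DDIT3, which encodes the pro-apoptotic factor CHOP, had 24.4 and 27.3 CPM in HSF2oe libraries with TGF-β, against 31.9 and 30.8 CPM in Mock libraries with TGF-β. In control medium it had 22.3 and 23.3 CPM in HSF2oe libraries, against 28.6 and 30.6 CPM in Mock libraries. It was called lower in control medium (log2 -0.38 ± 0.10, adjusted p = 0.0332) and missed the threshold with TGF-β (-0.28 ± 0.11, adjusted p = 0.0793). The call was lost with library totals (-0.28) and on leaving out any of the 4 control medium libraries. Its exons overlap those of MARS1 and MBD6, which lie on the other strand and had 218 to 334 and 27.8 to 34.6 CPM. Counting did not use strand, so read pairs that fit DDIT3 and an overlapping gene alike were counted for neither. NUPR1, a small stress-induced nuclear protein, fell in both media (log2 -0.60 and -0.77). ATF5, a related bZIP factor, was higher with TGF-β (log2 0.40 ± 0.13, adjusted p = 0.0401), a call lost without either HSF2oe library with TGF-β or without Mock replicate 2 with TGF-β. Of its exonic bases 22.1% are shared, among others with NUP62 on the other strand, which had 85.5 to 150 CPM against 33.1 to 49.6 CPM for ATF5. The same counting rule applied to these shared bases. CEBPB and CEBPG, the C/EBP partners, had log2 fold changes of 0.06 and -0.21 with TGF-β and of 0.08 and -0.18 in control medium.

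All 5 stress effectors were lower in HSF2oe cells with TGF-β, and 4 of the 5 in control medium. DDIT4 (chr10:72273919-72276036), also known as REDD1, an inhibitor of the growth kinase mTORC1, differed most. It had 38.8 and 77.5 CPM in HSF2oe libraries with TGF-β, against 208 and 227 CPM in Mock libraries with TGF-β. It had 37.2 and 59.8 CPM in HSF2oe control libraries, against 169 and 177 CPM in Mock control libraries. The HSF2oe replicates were spread widely but stayed far below every Mock library, with log2 fold changes of -1.91 ± 0.26 (SE, adjusted p = 0.000332) and -1.84 ± 0.26 (adjusted p = 0.00104).

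VLDLR (chr9:2621182-2660056) had the smallest p of the members in both media. It had 16.8 and 20.9 CPM in HSF2oe libraries with TGF-β, against 68.7 and 63 CPM in Mock libraries with TGF-β. Without TGF-β it had 12.4 and 14.6 CPM in HSF2oe libraries, against 30.1 and 36.6 CPM in Mock libraries. HSF2oe cells thus had 0.286 times the Mock level with TGF-β (log2 -1.81 ± 0.14, adjusted p = 9.64e-06) and 0.403 times the Mock level in control medium (log2 -1.31 ± 0.14, adjusted p = 0.000282).

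SESN2, the leucine-sensing sestrin, had 44.5 and 52.1 CPM in HSF2oe libraries with TGF-β, against 89.1 and 79.1 CPM in Mock libraries with TGF-β (log2 -0.80 ± 0.11, adjusted p = 0.000362). CHAC1 (chr15:40952962-40956512), which breaks down glutathione, had 26.3 and 37.3 CPM in HSF2oe libraries with TGF-β, against 66.2 and 62.6 CPM in Mock libraries with TGF-β (log2 -1.02 ± 0.15, adjusted p = 0.000499). In control medium CHAC1 had 16.5 and 19.8 CPM in HSF2oe libraries, against 35.1 and 32.5 CPM in Mock libraries (log2 -0.90 ± 0.15, adjusted p = 0.00265). Both genes were separated within each medium, although the HSF2oe libraries with TGF-β overlapped the Mock control libraries. SESN2 in control medium was lower by a log2 fold change of -0.51 ± 0.11 (adjusted p = 0.0101), a call lost without HSF2oe control replicate 1 or Mock control replicate 2. STC2 was lower with TGF-β (log2 -0.39, adjusted p = 0.0295) and had -0.25 in control medium (adjusted p = 0.179). The STC2 call was lost with library totals (-0.19), and without HSF2oe replicate 1 or either Mock library with TGF-β.

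**Figure D3:**
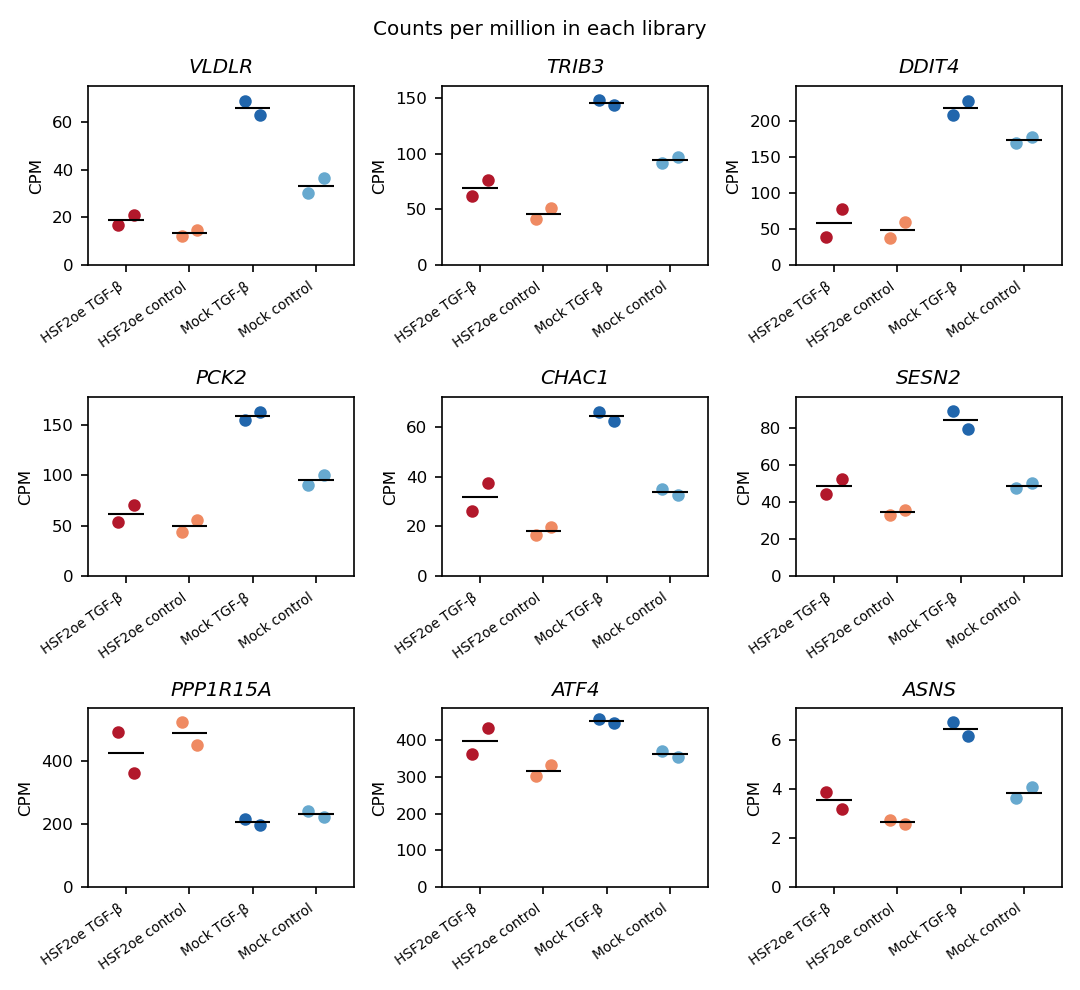
CPM of 9 members in each library (points), with the group mean as a line, HSF2oe groups left of Mock groups and TGF-β left of control within each. TRIB3, VLDLR, DDIT4 and PCK2 have no HSF2oe point as high as any Mock point, PPP1R15A has the opposite order, and ATF4 differs little.

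All 3 enzymes that make serine from a glycolytic intermediate were lower in HSF2oe cells in both media, and so were 2 of the 4 mitochondrial folate enzymes. PHGDH, its first enzyme, had 204 and 244 CPM in HSF2oe libraries with TGF-β, against 423 and 412 CPM in Mock libraries with TGF-β. It had 187 and 220 CPM in HSF2oe control libraries, against 328 and 364 CPM in Mock control libraries. The log2 fold changes were -0.90 ± 0.12 (SE, adjusted p = 0.000277) and -0.77 ± 0.12 (adjusted p = 0.00163). PSAT1 and PSPH, the next steps, fell by 0.81 and 0.68 on the log2 scale with TGF-β and by 0.77 and 0.66 in control medium, and in all 3 genes the HSF2oe libraries lay below all Mock libraries. MTHFD2 and ALDH1L2, mitochondrial enzymes of folate metabolism, fell by 0.51 and 0.82 with TGF-β and by 0.55 and 0.84 in control medium. SHMT2, which passes the carbon of serine to folate, was not called (log2 -0.26 and -0.25, adjusted p = 0.0712 and 0.112). MTHFD1L, another mitochondrial folate enzyme, was not called either, with -0.16 with TGF-β and 0.06 in control medium.

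PCK2 (chr14:24094053-24110598), which makes phosphoenolpyruvate in mitochondria, had the second smallest p of the members with TGF-β. It had 53.5 and 70.2 CPM in HSF2oe libraries with TGF-β, against 155 and 163 CPM in Mock libraries with TGF-β (log2 -1.37 ± 0.14, adjusted p = 7.5e-05). In control medium it had 43.2 and 55.3 CPM in HSF2oe libraries, against 90.5 and 100 CPM in Mock libraries (log2 -0.95 ± 0.14, adjusted p = 0.00137). PYCR1, the last enzyme of proline synthesis, fell in both media (log2 -0.61 and -0.63), while ALDH18A1, the first, was not called (-0.10 and -0.07). ASNS had 3.89 and 3.2 CPM in HSF2oe libraries with TGF-β, against 6.77 and 6.2 CPM in Mock libraries with TGF-β. Without TGF-β it had 2.76 and 2.57 CPM in HSF2oe libraries, against 3.63 and 4.09 CPM in Mock libraries. It was called lower with TGF-β (log2 -0.86 ± 0.20, adjusted p = 0.00962; not called without HSF2oe replicate 2 with TGF-β) and not in control medium (-0.54 ± 0.21, adjusted p = 0.109).

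Of the 4 transporters, only SLC7A5 with TGF-β was called. It had 2434 and 2148 CPM in HSF2oe libraries with TGF-β, against 3531 and 3137 CPM in Mock libraries with TGF-β (log2 -0.54 ± 0.12, adjusted p = 0.00687; not called without Mock replicate 1 with TGF-β). In control medium it had 2243 and 2113 CPM in HSF2oe libraries, against 2943 and 2524 CPM in Mock libraries (log2 -0.33, adjusted p = 0.0969). SLC7A11, the cystine importer, varied widely between HSF2oe replicates, with 98.4 and 67.9 CPM with TGF-β and 133 and 88.4 CPM in control medium. SLC3A2 and SLC7A1, a carrier of cationic amino acids, had log2 fold changes of -0.26 and 0.02 with TGF-β and of -0.01 and 0.20 in control medium.

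All 8 cytosolic tRNA synthetases, which load amino acids on tRNA, had negative log2 fold changes in both media, and 6 passed the test with TGF-β and 4 in control medium. WARS1, for tryptophan, had 158 and 186 CPM in HSF2oe libraries with TGF-β, against 306 and 359 CPM in Mock libraries with TGF-β (log2 -0.95 ± 0.12, adjusted p = 0.000259). Without TGF-β it had 125 and 146 CPM in HSF2oe libraries, against 218 and 246 CPM in Mock libraries (log2 -0.78 ± 0.12, adjusted p = 0.00193). AARS1, GARS1 and SARS1, for alanine, glycine and serine, fell by 0.49, 0.54 and 0.46 with TGF-β and by 0.47, 0.41 and 0.52 in control medium. MARS1 and IARS1, for methionine and isoleucine, fell by 0.39 and 0.42 with TGF-β. NARS1 and EPRS1, for asparagine and for glutamate and proline, were not called, with log2 fold changes of -0.20 and -0.24 with TGF-β. Of the calls other than that of WARS1, each was lost without at least 1 library.

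The members that changed with TGF-β were all higher with it. In HSF2oe cells 7 of the 36 members were higher with TGF-β than in control medium and none lower, where 8.26% of all genes were called, 4.45% higher and 3.82% lower. In Mock cells 12 were higher and none lower, where 13.8% of all genes were called, 7.32% higher and 6.5% lower. The median log2 fold change of the members was 0.26 in HSF2oe cells (all genes -0.01) and 0.30 in Mock cells (all genes 0). TRIB3, SESN2, CHAC1, MTHFD2, PYCR1 and GARS1 were called higher in both. NUPR1 was called in HSF2oe cells and not in Mock cells, and VLDLR, MTHFD1L, ASNS, PCK2, SLC7A1 and WARS1 in Mock cells and not in HSF2oe cells.

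These counts leaned on single libraries. In HSF2oe cells the count was 0 without HSF2oe control replicate 1, 1 without HSF2oe replicate 2 with TGF-β, and 11 without HSF2oe replicate 1 with TGF-β. In Mock cells it was 6 without Mock control replicate 1 or without Mock replicate 2 with TGF-β, and 7 without Mock replicate 1 with TGF-β. VLDLR, SESN2, CHAC1, PCK2 and TRIB3 kept their calls in Mock cells in every alternative, and none of the 7 did so in HSF2oe cells. The number also depended on scaling: with library totals in place of TMM factors the median log2 fold change of all genes was -0.17 in HSF2oe cells (-0.01 with TMM) and -0.27 in Mock cells (0 with TMM). Then 2 members were called higher in HSF2oe cells and 5 in Mock cells. PPP1R15A and ATF5 in Mock cells and SLC7A11 in HSF2oe cells were called lower under library totals. Relative to the median of all genes, the members' median was 0.27 in HSF2oe cells and 0.30 in Mock cells under both scalings. A change of scaling moves all genes of a comparison by nearly the same amount, so this sameness is no check on the result.

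**Figure D4:**
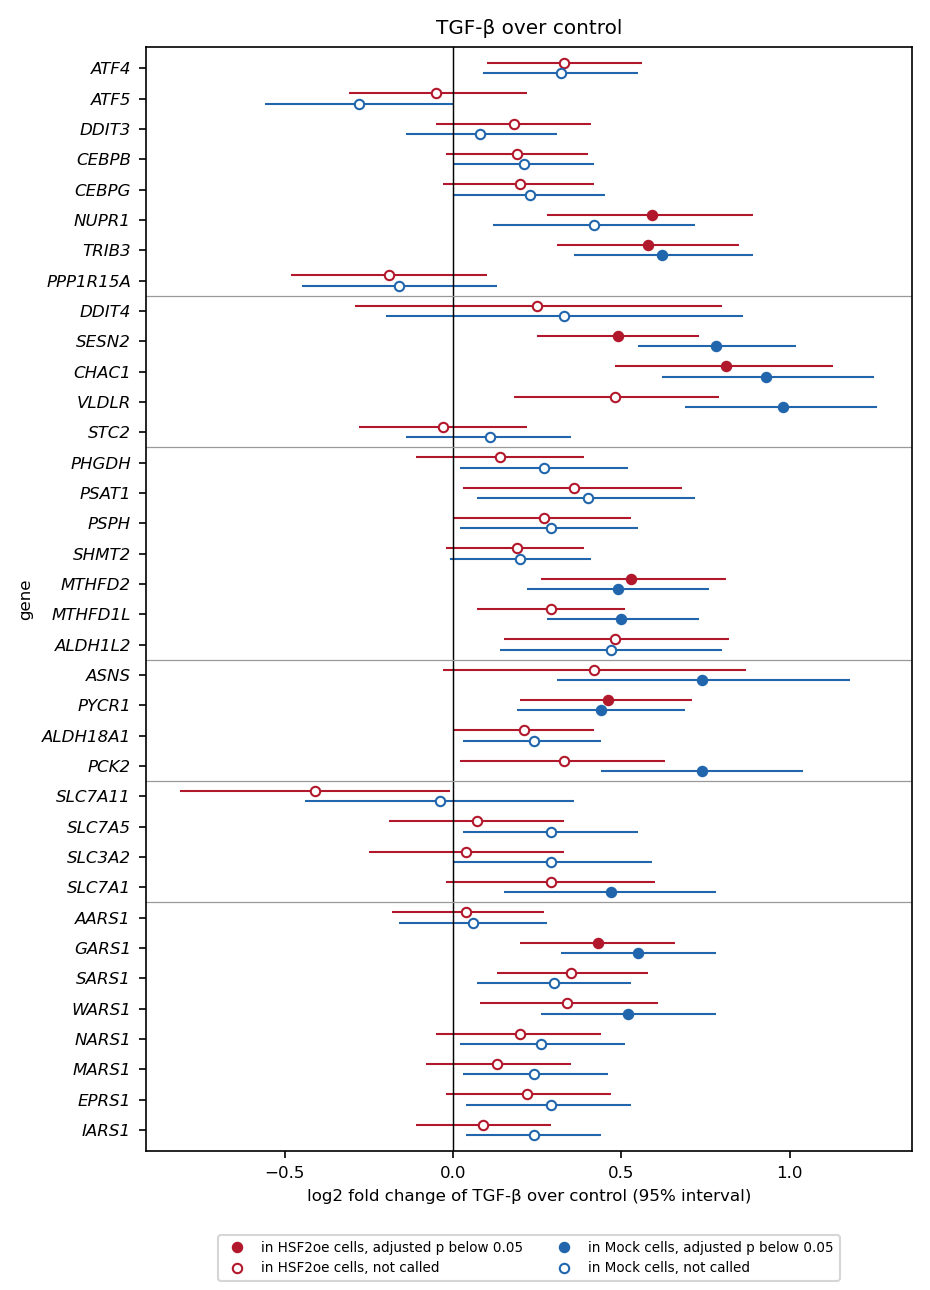
Log2 fold change of TGF-β over control for each member, with its 95% interval, in HSF2oe cells (red, upper mark) and Mock cells (blue, lower mark), 2 libraries a group. Filled marks have an adjusted p under 0.05; all of them lie right of 0, and the intervals of the 2 backgrounds overlap for every member.

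CHAC1 changed most in HSF2oe cells. Its log2 fold change with TGF-β was 0.81 ± 0.15 (SE, adjusted p = 0.0042) in HSF2oe cells and 0.93 ± 0.15 (adjusted p = 0.000738) in Mock cells. SESN2 rose by 0.49 ± 0.11 (adjusted p = 0.0128) in HSF2oe cells and by 0.78 ± 0.11 (adjusted p = 0.000306) in Mock cells. TRIB3 rose by 0.58 ± 0.13 (adjusted p = 0.0104) in HSF2oe cells and by 0.62 ± 0.12 (adjusted p = 0.00396) in Mock cells. In all 3 both TGF-β libraries lay above both control libraries of the same background. MTHFD2, PYCR1 and GARS1 rose by 0.53, 0.46 and 0.43 in HSF2oe cells and by 0.49, 0.44 and 0.55 in Mock cells. NUPR1 had 0.59 ± 0.14 (adjusted p = 0.0192) in HSF2oe cells and 0.42 ± 0.14 (adjusted p = 0.0618, not called) in Mock cells.

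VLDLR had the largest rise in Mock cells, with 68.7 and 63 CPM with TGF-β against 30.1 and 36.6 CPM in control medium (log2 0.98 ± 0.13, adjusted p = 0.000257). In HSF2oe cells it had 16.8 and 20.9 CPM with TGF-β against 12.4 and 14.6 CPM in control medium, and just missed the threshold (0.48 ± 0.14, adjusted p = 0.0538). PCK2 was called in Mock cells and not in HSF2oe cells, with 0.33 ± 0.14 in HSF2oe cells (adjusted p = 0.207) and 0.74 ± 0.14 in Mock cells (adjusted p = 0.00255). ASNS had 0.42 ± 0.21 in HSF2oe cells (adjusted p = 0.291) and 0.74 ± 0.20 in Mock cells (adjusted p = 0.0253). The Mock call was lost with library totals (0.48) and on leaving out any library of that comparison. MTHFD1L and WARS1 rose by 0.50 and 0.52 in Mock cells (adjusted p = 0.00502 and 0.011), and SLC7A1 was at the threshold (0.47, adjusted p = 0.0499).

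ATF4 mRNA had log2 fold changes of 0.33 ± 0.11 (SE, adjusted p = 0.0847) in HSF2oe cells and 0.32 ± 0.11 (adjusted p = 0.0697) in Mock cells. Both TGF-β libraries lay above both control libraries in each background, and neither comparison passed the test. DDIT3 was not called, with 0.18 in HSF2oe cells and 0.08 in Mock cells. DDIT4 was not called for TGF-β (0.25 ± 0.25 in HSF2oe cells, 0.33 ± 0.25 in Mock cells), nor was PPP1R15A (-0.19 and -0.16).

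The difference between the TGF-β effects, HSF2oe minus Mock, was called for none of the 36 members and for none of the 16008 genes (0%) in edgeR's quasi-likelihood test. At an unadjusted p under 0.05 there was 1 member, VLDLR (-0.50 ± 0.19, unadjusted p = 0.0228, adjusted p = 0.791), and 977 genes in all (6.1%). DESeq2 called 0 members and 23 genes in all. The 95% interval of the difference ran from -0.91 to -0.08 for VLDLR, from -0.84 to 0.01 for PCK2, from -0.32 to 0.34 for ATF4 and from -0.42 to 0.34 for TRIB3. Genes called in a single background are thus not shown to differ between backgrounds.

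With both changes together, HSF2oe cells with TGF-β stood below untreated Mock cells for 17 of the 36 members, both libraries being lower than both Mock control libraries (47.2%, against 30.8% of all genes). They stood above for 5 (13.9%, against 30.1% of all genes), and the libraries overlapped for 14. The 17 included VLDLR, TRIB3, DDIT4, PCK2, PHGDH, PSAT1, PSPH and WARS1. The 5 were PPP1R15A, CEBPB, MTHFD1L, ALDH18A1 and SLC7A1. ATF4, SESN2, CHAC1 and MTHFD2 were among the 14 that overlapped.

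Neighbouring lists of the pathway were read against the shares of all genes called for HSF2oe over Mock, 21.5% with TGF-β and 12.1% in control medium. Of 20 genes for the eIF2 kinases, eIF2, its exchange factor eIF2B and its phosphatase, 3 were higher and none lower in HSF2oe than Mock cells with TGF-β, and none was called in control medium (15% and 0%, no higher than over all genes). The 3 were EIF2S1, the phosphorylated subunit of eIF2 (log2 0.38, adjusted p = 0.0122), and EIF2B5 and EIF2B2 of eIF2B (0.30 and 0.35). Of 22 tested targets of ATF4 and CHOP outside the 36, 10 were lower and 3 higher with TGF-β, and 7 were lower and 3 higher in control medium (59.1% and 45.5% called, above the shares of all genes). INHBE, which encodes an inhibin chain, fell by 2.09 and 1.96 on the log2 scale. GADD45A and ATF3, growth arrest and stress response genes, rose by 1.04 and 1.56 with TGF-β and by 1.21 and 2.32 in control medium.

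The other tRNA synthetases were called no more often than all genes. Of 16 other cytosolic ones, CARS1 and LARS1 were lower and FARSA higher with TGF-β (log2 -0.41, -0.32 and 0.34), and none was called in control medium (18.8% and 0%). Of 20 mitochondrial tRNA synthetases none was lower in HSF2oe cells, and AARS2 was higher in both media (log2 0.31 with TGF-β, 0.34 in control medium), with 10% and 5% of the list called. The medians of the 16 were -0.04 and 0 and those of the 20 were 0.09 and 0.15. Of 20 tested amino acid transporters outside the 36, 9 were lower and 1 higher with TGF-β, and 4 were lower and 1 higher in control medium (50% and 25% called, above the shares of all genes). SLC1A4, a neutral amino acid carrier, fell by 1.12 and 0.91, and SLC6A9, a glycine transporter, by 1.07 and 0.80, while SLC7A2, a cationic carrier, rose by 1.74 and 1.03.

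Of 26 tested enzymes of serine, folate, proline and glutamine metabolism outside the 36, 5 were lower and 1 higher in HSF2oe cells with TGF-β, and 5 were lower and 2 higher in control medium. With TGF-β 23.1% were called, near the share of all genes, and in control medium 26.9%, above the 12.1% of all genes. The list was led by the arginine synthesis enzyme ASS1 (log2 -1.79 with TGF-β, -1.41 in control medium). Thymidylate synthase, TYMS, was higher (1.31 and 0.42). Of 22 tested genes of amino acid sensing upstream of mTORC1, 4 were lower with TGF-β and 3 in control medium (18.2% and 13.6%, near the shares of all genes), led by DEPTOR, an mTOR inhibitor (-1.53 and -1.17), and SESN3 (-1.48 and -1.3). Of 23 genes of the IRE1-XBP1 and ATF6 branches of the unfolded protein response, 13 were lower and 1 higher with TGF-β, and 4 were lower and 1 higher in control medium (60.9% and 21.7% called, above the shares of all genes). The chaperone gene HYOU1 fell by 0.59 and 0.47 and HERPUD1, of endoplasmic reticulum protein disposal, by 0.69 and 0.76, and the 1 higher was ERN1, which encodes IRE1 (0.45 and 0.62). With TGF-β over control, 9 of these 23 were higher in HSF2oe cells (39.1%, against 8.26% of all genes called) and 12 in Mock cells (52.2%, against 13.8%) and none lower, led by the co-chaperone DNAJB9 (log2 1.09 and 1.12).

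**Figure D5:**
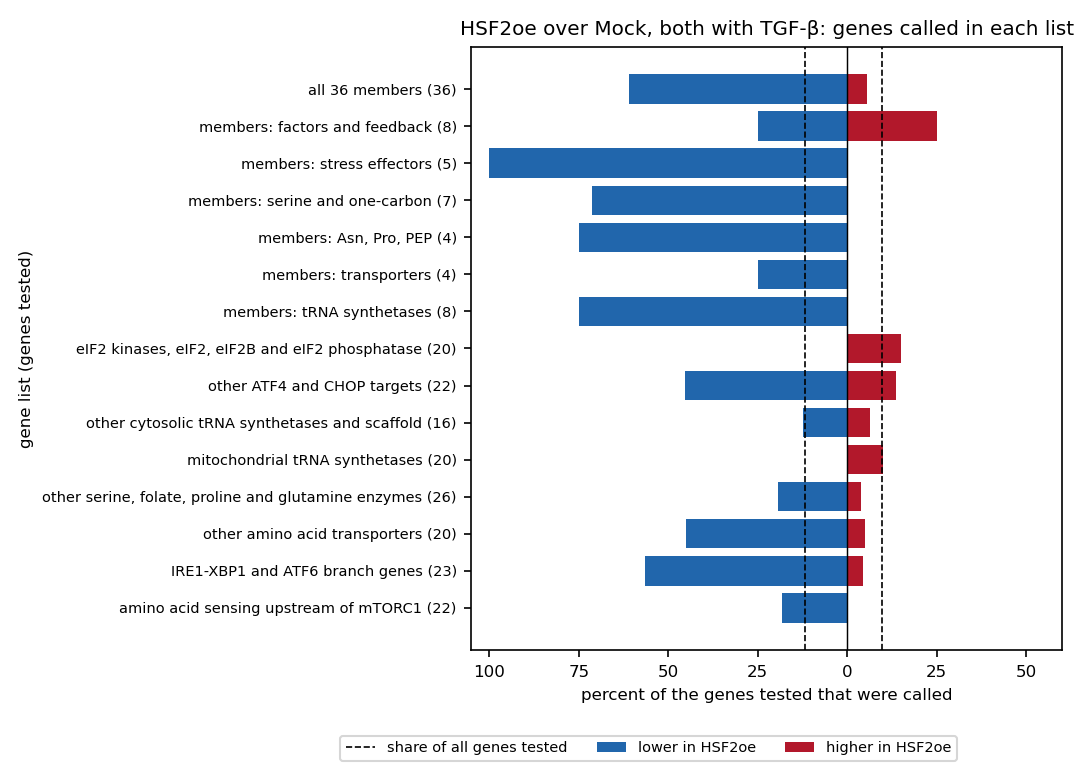
Percent of the tested genes in each list called lower (blue, to the left) or higher (red, to the right) in HSF2oe than Mock cells, both with TGF-β, beside the shares of all genes tested (dashed lines, 11.9% lower and 9.6% higher). The number tested is in brackets. The list of all members, other ATF4 and CHOP targets, other transporters and unfolded protein response genes extend well to the left. The eIF2 and mitochondrial synthetase lists do not. Of the member lists, factors and feedback had 2 of 8 lower and 2 higher, and transporters had 1 of 4 lower.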

How the data were processed

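HS578T RNA was sequenced in 8 libraries, 2 per group. Per the submitters' processing notes, reads were processed with bcl2fastq, STAR 2.7.9a, featureCounts (Subread 2.0.1) and edgeR 3.34.1 on GRCh38. Per the file headers, the deposited read counts per gene came from featureCounts 2.0.1 with GENCODE 38, counted without regard to strand; per the labels the kit keeps strand. A deposited log2 CPM table by the authors (13169 genes, all 36 members) served as an alternative only.

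Counts were analysed in R 4.3.3 with edgeR 4.0.16: filterByExpr, TMM scaling, and quasi-likelihood tests of a model with 4 group means (4 residual degrees of freedom, 9.21 prior), Benjamini-Hochberg over 16008 genes at 0.05. The biological coefficient of variation was 9.91%. RPKM divides CPM by exonic length. Replicates differed beyond counting noise (chi-square per degree of freedom 12.5 to 26.8). In CPM, 3 counts correspond to 0.0851 to 0.195.

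For HSF2oe over Mock, the members named in full are the 8 called with the smallest p, plus ATF4, DDIT3 and ASNS, and up to 3 called genes per other list. For TGF-β over control, several called members are given with fewer values. SLC7A5, SLC7A11 and, with TGF-β, CHAC1 are also given by library, chosen after their values were seen. The members and lists were chosen with earlier results of these data known. The models were also run on simulated counts, with an outcome that is not given here. Alternatives were RLE size factors, library totals, other filters, a replicate block, DESeq2 1.42.0, limma-trend (3.58.1), the compared libraries alone, each library left out and, chosen after seeing the data, members with under 10% of exonic bases shared.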

Additional observations from a re-analysis of the deposited data

How the results depend on the processing

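No called member changed direction under any alternative. Calls held under every alternative for 0 of 7 members raised by TGF-β in HSF2oe cells, 5 of 12 in Mock cells, 13 of 24 called for HSF2oe over Mock with TGF-β and 8 of 19 in control medium. The number called for TGF-β in HSF2oe cells (7) was 3 with library totals, 14 without a low-count filter, 17 with a replicate block, 11 with DESeq2 and 4 among members sharing under 10% of exonic bases. In Mock cells (12) it was 7 with library totals and 26 with a replicate block. For HSF2oe over Mock the block gave 30 with TGF-β (24 without it) and 24 in control medium (19 without it), and over all genes it raised the count to 3614 in control medium (1937 without it), 2366 for TGF-β in HSF2oe cells (1323 without it) and 3350 in Mock cells (2212 without it). The labels do not say whether a replicate number marks a shared culture or day. Deviations of same-numbered libraries correlated weakly, by 0.05 to 0.16 over 6 pairs of groups, above 0.1 in 2. Whether the numbers pair the samples was thus not settled, and the block was kept as an alternative. Leaving out 1 library at a time gave 0 to 11 for TGF-β in HSF2oe cells, 6 to 13 in Mock cells, 16 to 25 for HSF2oe over Mock with TGF-β and 8 to 19 in control medium; the lone library left in a group is assumed to vary like the others. The members' median difference between TGF-β effects, -0.07, was 0.04 with library totals and 0.01 without HSF2oe replicate 1 with TGF-β, and leaving out 1 library gave -0.13 to 0.01. That difference was called for no member under any alternative, and for 78 genes in all with the block, 23 with DESeq2 and 83 without a filter. With library totals the share of calls that were higher was 22.1% for TGF-β in HSF2oe cells (53.8% with TMM), 13.5% in Mock cells (53% with TMM), 76.7% for HSF2oe over Mock with TGF-β (44.6% with TMM) and 64% in control medium (40.3% with TMM). The cause of these shifts was not tested. With 2 libraries a group, small changes such as that of ATF4 did not pass in the quasi-likelihood test without the block.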

Other observations

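The HSF2oe replicates differed in HSF2 itself and in the program. In HSF2oe cells with TGF-β, replicate 1 had 780.3 CPM of HSF2 and replicate 2 had 489 CPM, and 28 of the 36 members were lower in replicate 1 (48.8% of all genes were), with a median log2 difference of -0.17 (all genes 0.01). In HSF2oe control cells replicate 1 had 937 CPM and replicate 2 had 616 CPM, and 26 members were lower in replicate 1 (51.1% of all genes were), with a median of -0.17 (all genes -0.01). The Mock replicates, with 5.4 and 5.76 CPM of HSF2 with TGF-β and 8.36 and 6.44 CPM in control medium, had 14 and 23 members lower in replicate 1 (51.7% and 50.2% of all genes were), with medians of 0.04 and -0.09. These are single pairs of libraries, with no test, and whether the level of HSF2 bears on the members was not tested.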
